A study of Mus musculus with 9 samples.

Results

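The nuclear-encoded respiratory chain genes are the genes in the cell nucleus whose proteins build complexes I to V of the mitochondrial inner membrane. They were chosen by symbol: every protein-coding row of the gene count matrix named as an Nduf (A, B, C, S or V series), Sdha to Sdhd, Uqcr, Cyc1, Cox4 to Cox8 or Atp5 gene. This gave 86 of 55401 rows, with 37 in complex I, 4 in complex II, 9 in complex III, 18 in complex IV and 18 in complex V. The symbols place a few genes loosely. Ndufa4 is counted with complex I although its protein is known as a subunit of complex IV, Cox7a2l is a factor for joining complexes into supercomplexes, and Atp5s is a coupling factor and not a structural subunit. A further 12 genes matched by symbol were left out because the annotation does not call them protein coding.

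Complexes I and II pass electrons from NADH and from succinate to coenzyme Q, complex III passes them on to cytochrome c, and complex IV reduces oxygen. Complexes I, III and IV pump protons, and complex V, the ATP synthase, uses the proton gradient to make ATP. Most subunits are encoded in the nucleus and a small core by mitochondrial DNA, and several complex IV subunits have a form made mainly in heart and skeletal muscle beside a form made in most tissues.

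The libraries were made from whole ears of C57 mice in 3 groups of 3: ears given MC903 in mice that also received paeonol at 200 mg/kg (MC903+paeonol), ears given MC903, and control ears given absolute ethyl alcohol. MC903 (calcipotriol) is a vitamin D analog that causes dermatitis when applied to mouse skin, and paeonol is a phenolic compound from peony root bark. The labels name no vehicle for paeonol, no group given paeonol without MC903, no age or sex, and do not say that the 3 libraries of a group came from separate animals, so p-values here measure only the spread between these libraries. The 3 comparisons share libraries.

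Totals were 54.26 to 57.75 M estimated counts per library. Basal keratinocyte markers summed to 20670 to 21890 CPM (counts over the library total in M, scaled by the TMM method) in MC903+paeonol ears, 21050 to 22180 in MC903 ears and 15650 to 17480 in control ears, with 2 of the 8 markers higher and 4 lower in MC903 than in control ears (median -0.11). A list of 24 skeletal muscle markers, all measured and none at 0, summed to 3973 to 5246 CPM in MC903+paeonol ears, 3490 to 4402 in MC903 ears and 7536 to 11210 in control ears, with the lowest control value in control 1 and the highest in control 3.

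Most members differed little between groups, and the large differences were in a few named genes. In MC903 against control ears, 24 of 83 tested members were called higher and 12 lower (adjusted p under 0.05), which is 28.9% and 14.5% of them, beside 23% and 23.8% of all 21925 genes tested. In MC903+paeonol against MC903 ears, 6 were higher and 7 lower (7.23% and 8.43%), beside 15.3% and 14.3% of all genes. In MC903+paeonol against control ears, 12 were higher and 9 lower (14.5% and 10.8%), beside 16.3% and 14.5%. The members' shares of calls were thus below those of all genes in each direction except for higher calls in MC903 against control. The remaining 3 members, Cox7b2, Cox8c and a second identifier of Atp5o, had almost no counts and were not tested. By complex, in the order I to V, 37, 4, 9, 16 and 17 members were tested. Higher calls in MC903 against control numbered 9, 0, 2, 6 and 7, and lower calls 3, 2, 0, 5 and 2. In MC903+paeonol against MC903 they numbered 3, 0, 1, 1 and 1 higher, and 3, 0, 1, 1 and 2 lower. In MC903+paeonol against control they numbered 3, 0, 2, 5 and 2 higher, and 2, 2, 0, 4 and 1 lower.

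The differences were small in size. The log2 fold change lay within 0.25 of 0 in 56, 72 and 66 of the 83 members in the 3 comparisons taken in the same order, and the median was 0.05, -0.04 and 0.02, beside -0.02, 0.00 and -0.03 over all genes. The split between higher and lower calls depended on the scaling. Scaled by library totals alone, 5 members were higher and 35 lower in MC903 against control (15.5% and 32.9% of all genes), 7 higher and 4 lower in MC903+paeonol against MC903 (16.5% and 12.8%), and 4 higher and 24 lower in MC903+paeonol against control (9.83% and 24.4%). That scaling moved the median of all genes in MC903 against control to -0.21 and that of the members to -0.14. Small increases against control below therefore hold relative to the typical gene only.

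Single libraries also moved these counts. Without control 1, 15 members were higher in MC903 than in control and 5 in MC903+paeonol than in control. Over all 22658 genes tested in that fit, 4574 and 3211 were higher. For MC903+paeonol against MC903, higher calls numbered 3 without MC903 1, 2 without MC903 3 and 1 without MC903+paeonol 2, and lower calls numbered 2 without MC903 2 or MC903 3, 1 without MC903+paeonol 1 and 4 without MC903+paeonol 2 or 3. Over all genes, these fits called 2661 to 3048 higher and 2404 to 2861 lower. For MC903+paeonol against control, higher calls numbered 6 without control 2 or MC903+paeonol 2 and 7 without MC903+paeonol 3. Lower calls numbered 5 without control 2. Over all genes, 2903 to 3033 were higher in these fits, and 2388 were lower without control 2.

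**Figure D1:**
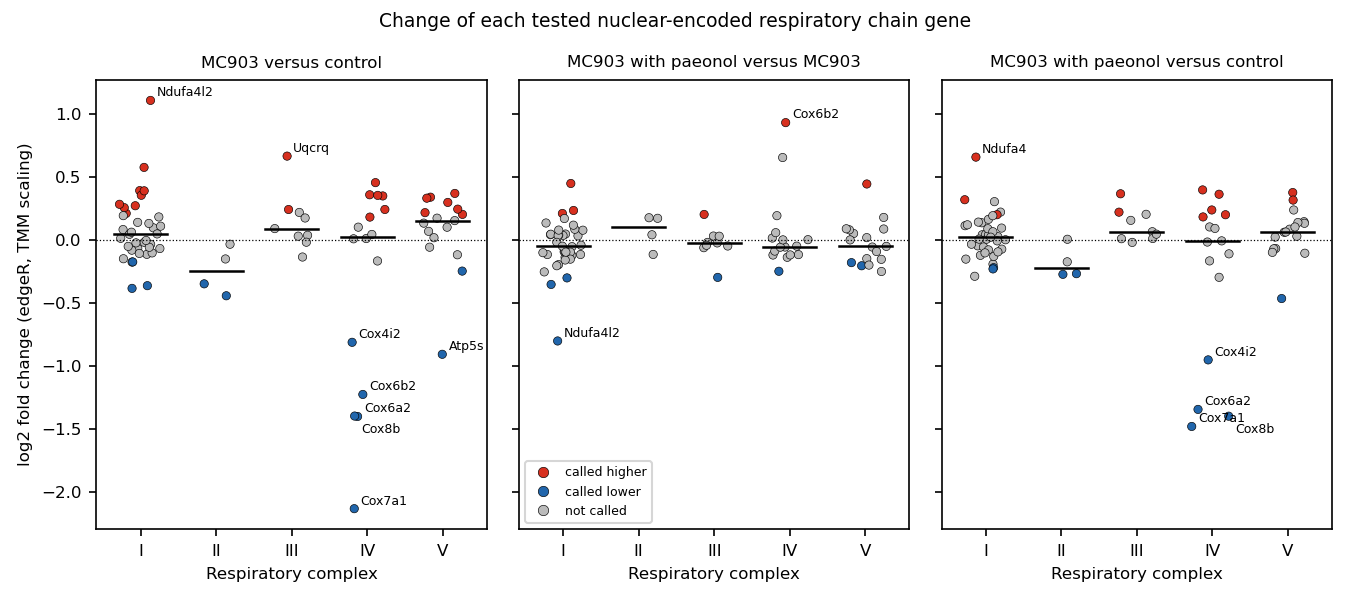
Each point is 1 tested member, placed by complex (x axis) and log2 fold change (y axis) in the comparison named above the panel; red and blue points were called higher and lower, and black bars are medians. Most points lie within 0.25 of 0, and those below -1 are the complex IV forms Cox7a1, Cox6a2, Cox8b and, in MC903 against control, Cox6b2.

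Levels between genes were compared as CPM per kilobase of exon, the length being that of the merged exons of a gene's protein-coding transcripts. A long merged length lowers this value. It was 4375 bases for Ndufb2 and 1827 for Uqcrq. In CPM of control ears, Ndufb2 (23.2) lay above Ndufa12 (16.8), and Uqcrq (52.5) above Uqcr11 (32.6). In control ears the complex I members spanned 5.30 (Ndufb2) to 278 (Ndufa4) CPM per kilobase with a median of 50.1, and complex II spanned 31.4 (Sdhc) to 75.4 (Sdha). Complex III ran from 28.8 (Uqcrq) to 198 (Uqcrh), complex IV from 4.71 (Cox6b2) to 387 (Cox4i1) and complex V from 6.20 (Atp5s) to 393 (Atp5b). The medians in MC903+paeonol, MC903 and control ears were 101, 113 and 102 in complex V and 46.4, 53.2 and 50.1 in complex I. The complex V median thus stood above the complex I median in all groups, while the ranges of these complexes overlapped. The ubiquitous forms Cox4i1 and Atp5b were the highest of their complexes throughout.

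**Figure D2:**
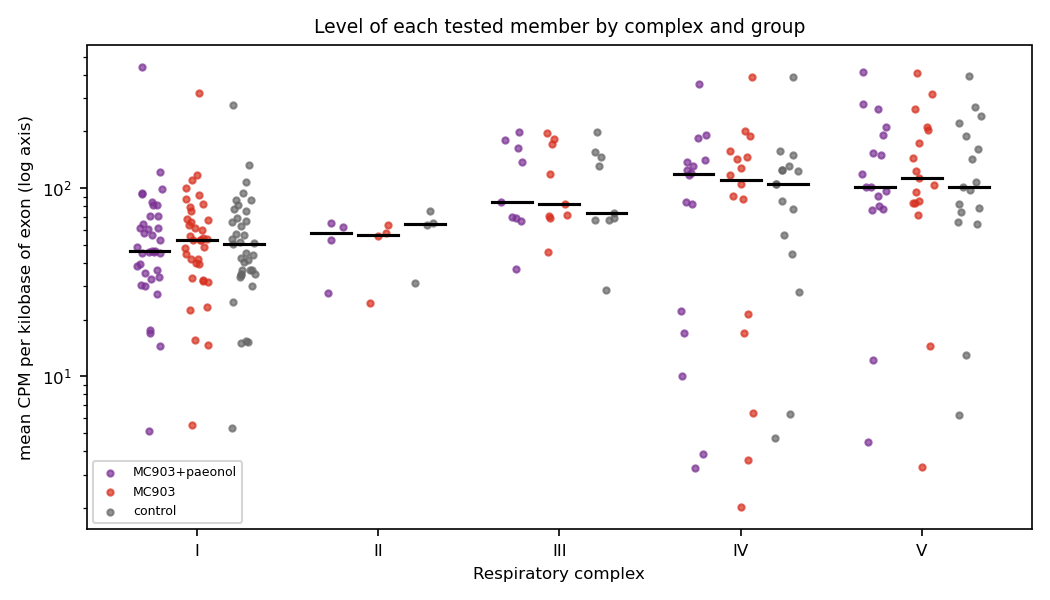
Points are group means of each tested member in CPM per kilobase of exon (log axis) by complex; purple, red and gray are MC903+paeonol, MC903 and control ears, and black bars are medians. The complex medians lie close together in the 3 groups, and the lowest points of complexes IV and V are tissue forms of complex IV and Atp5s.

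The muscle forms of complex IV were the members that fell most. Cox6a2, Cox7a1 and Cox8b encode the forms of subunits 6A, 7A and 8 found in heart and skeletal muscle, and Cox7a1 and Cox8b are also made in brown fat. Cox7a1 (chromosome 7, 30184144 to 30186078, GRCm38, plus strand) was at 4.63, 5.39 and 6.10 CPM in MC903+paeonol ears, 3.03, 4.55 and 2.67 in MC903 ears and 11.7, 13.8 and 19.4 in control ears. All 3 groups were separate, with control highest and MC903 lowest. It fell by 2.13 ± 0.24 (log2, SE) in MC903 against control (adjusted p = 2.79e-05) and by 1.48 ± 0.24 in MC903+paeonol against control (adjusted p = 0.00081). In MC903+paeonol against MC903 the log2 change was 0.65 ± 0.24 (adjusted p = 0.061), and without MC903 2 it was 0.91 (adjusted p = 0.0186), against a range of 0.0186 to 0.469 over the alternatives run.

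Cox6a2 (chromosome 7, 128205435 to 128206387, minus strand) was at 12.3, 15.5 and 17.6 CPM in MC903+paeonol ears, 14.1, 13.9 and 15.7 in MC903 ears and 27.3, 38.1 and 49.9 in control ears. Both MC903 groups lay below every control library and overlapped each other. The log2 change was -1.40 ± 0.20 in MC903 against control (adjusted p = 0.000288), -1.34 ± 0.20 in MC903+paeonol against control (adjusted p = 0.000907) and 0.06 ± 0.20 in MC903+paeonol against MC903 (adjusted p = 0.875). An exon of Itgad, an integrin gene, overlaps Cox6a2 on the other strand, and Itgad was at 0.17 to 0.74 CPM over the 9 libraries. Cox8b (chromosome 7, 140898945 to 140900446, minus strand) showed the same order, at 4.93, 6.68 and 6.61 CPM in MC903+paeonol ears, 4.66, 7.25 and 6.32 in MC903 ears and 10.3, 15.7 and 22.0 in control ears. It fell by 1.40 ± 0.27 in MC903 (adjusted p = 0.00132) and by 1.40 ± 0.27 in MC903+paeonol (adjusted p = 0.00264), both against control.

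These falls ran beside the muscle markers. Of the 24 markers, 21 were lower and 1, Tnni1, was higher in MC903 than in control ears (median -1.61), 23 were lower in MC903+paeonol than in control (median -1.11), and 6 were higher and 3 lower in MC903+paeonol than in MC903 (median 0.42). Myoglobin (Mb) and slow troponin T (Tnnt1) had the smallest p, with changes of -1.39 and -1.75 in MC903 against control. Ryr1, the calcium release channel, changed by -0.94 in MC903+paeonol against control, and Tnni1 and Myh2 by -0.58 and -0.60 in MC903+paeonol against MC903. Among controls, control 1 was lowest and control 3 highest for Cox6a2, Cox7a1, Cox8b and the summed markers. With the mean log2 level of the muscle markers as a covariate, the changes in MC903 against control became -0.28 for Cox7a1, 0.23 for Cox6a2 and 0.76 for Cox8b, none called (adjusted p = 0.809, 0.81 and 0.491). That fit called 7 members higher and 0 lower in MC903 against control. It called 2 and 10 in MC903+paeonol against MC903, and 1 and 0 in MC903+paeonol against control. Over all 21925 genes it called 852 higher and 672 lower, 2562 and 2299, and 298 and 56, in the same order. The main fit called 5044 and 5215, 3357 and 3145, and 3578 and 3187. Group accounts for 0.912 of the variance of that covariate, so the muscle marker level and the treatment cannot be told apart. In whole tissue, fewer cells of a type and less RNA per cell cannot be told apart either. All 12 adipocyte markers were also lower in MC903 than in control ears, and their sums were 487.7 to 543.3 CPM in MC903+paeonol, 424.6 to 526.2 in MC903 and 781.3 to 976.4 in control ears; their part in the result was not tested.

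Of the ubiquitous partners, Cox6a1 and Cox8a were called higher than control in both MC903 groups, and Cox7a2 in MC903+paeonol. Cox6a1 was at 106, 114.5 and 108 CPM in MC903+paeonol ears, 108.2, 109.9 and 107 in MC903 ears and 83.0, 86.1 and 86.4 in control ears. It was higher than control by 0.36 ± 0.05 in MC903+paeonol (adjusted p = 0.000599) and by 0.35 ± 0.05 in MC903 (adjusted p = 0.000292), with every treated library above every control, and both calls held when scaled by library totals (0.20 in MC903+paeonol and 0.16 in MC903). Cox8a, at 75.8 to 78.8 CPM in MC903+paeonol, 77.7 to 84.0 in MC903 and 66.6 to 72.2 in control ears, was higher than control by 0.18 in MC903+paeonol and 0.24 in MC903 (adjusted p = 0.0381 and 0.00587), but neither call held when scaled by library totals, and the first ended without control 1, control 3 or any single MC903+paeonol library (adjusted p = 0.0606 to 0.124). Cox7a2 was at 71.2, 85.5 and 80.6 CPM in MC903+paeonol ears, 69.0, 68.4 and 70.5 in MC903 ears and 70.1, 69.1 and 67.6 in control ears, a change of 0.01 ± 0.07 in MC903 against control (adjusted p = 0.942) and of -0.18 when scaled by library totals. In MC903+paeonol it was 0.20 ± 0.07 higher than control (adjusted p = 0.0494), a call that ended when scaled by library totals, without any single control or MC903 library, and without MC903+paeonol 2 or 3 (adjusted p = 0.062 to 0.198 over these libraries), and also without the expression filter (0.0678) and in a fit of the 2 groups (0.0797).

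Each muscle form was then set against its ubiquitous partner within a library, which needs no scaling between libraries. The Cox6a2 to Cox6a1 ratio per kilobase was 0.0975, 0.114 and 0.137 in MC903+paeonol ears, 0.109, 0.107 and 0.123 in MC903 ears and 0.276, 0.372 and 0.485 in control ears. The Cox7a1 to Cox7a2 ratio averaged 0.0836 ± 0.0084 in MC903+paeonol, 0.0609 ± 0.0186 in MC903 and 0.269 ± 0.077 in control ears (SD, n = 3 each). The Cox8b to Cox8a ratio averaged 0.120 ± 0.021 in MC903+paeonol, 0.115 ± 0.024 in MC903 and 0.358 ± 0.135 in control ears. In all 3 ratios every MC903 and MC903+paeonol library lay below every control library. The log2 differences from control were -1.71, -2.15 and -1.60 in MC903 and -1.68, -1.65 and -1.53 in MC903+paeonol, each with a two-sided exact permutation p = 0.1, the smallest that 3 against 3 allows (0.15 adjusted over 9 tests). Between MC903+paeonol and MC903 they were 0.03, 0.49 and 0.07 (exact permutation p = 0.9, 0.3 and 0.6).

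**Figure D3:**
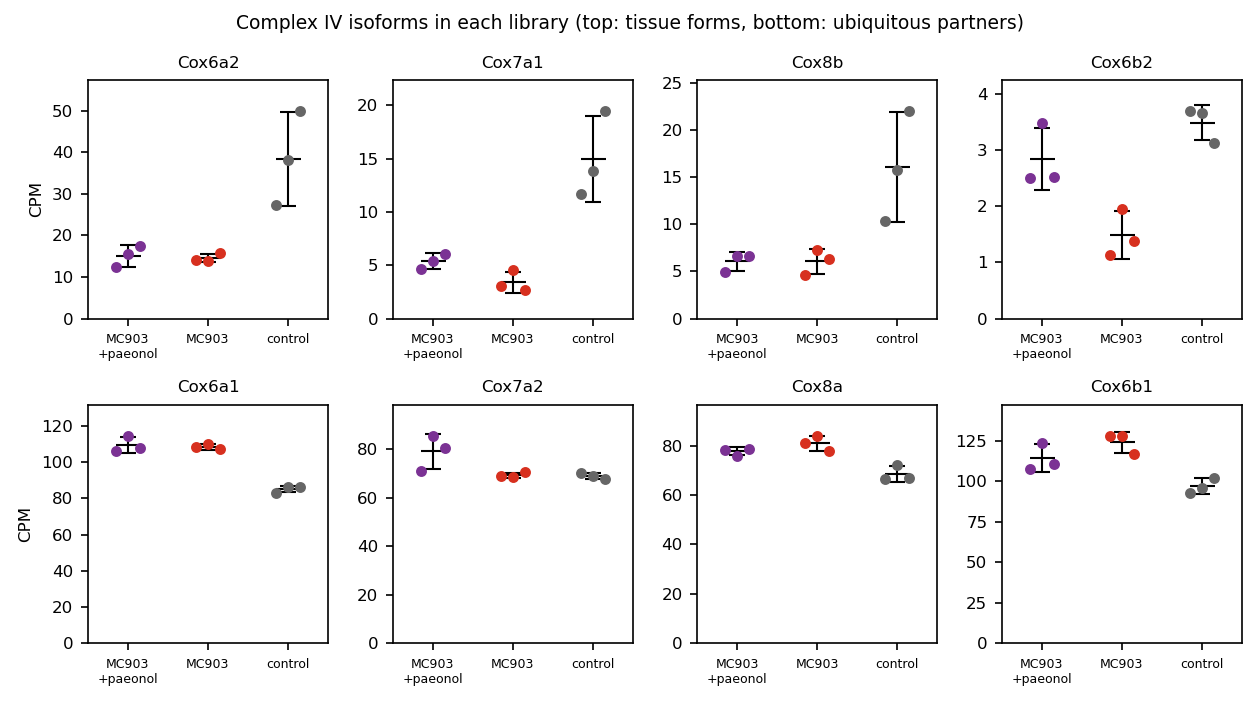
CPM of each library (points) with group mean and SD (black, n = 3) for 4 tissue forms of complex IV (top) and their ubiquitous partners (bottom); each axis starts at 0. Cox6a2, Cox7a1 and Cox8b are highest in all 3 control libraries, whereas Cox6a1, Cox8a and Cox6b1 are lowest there.

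The promoter windows below are shown because they set a muscle form that fell beside ubiquitous forms that did not. Each runs from 250 bases before to 50 after the start of the gene (RefSeq, GRCm38.p6), all 3 are on the minus strand and are printed 5′ to 3′. Capitals mark exact matches on either strand to CAGCTG (an E-box) and TATAAA in Cox8b, CCGGAAG (an ETS-type motif) in Cox8a, and GCGCNTGCG (an NRF1-type motif) and CCGGAAG in Cox6a1.
Cox8b, chr7:140900397-140900696: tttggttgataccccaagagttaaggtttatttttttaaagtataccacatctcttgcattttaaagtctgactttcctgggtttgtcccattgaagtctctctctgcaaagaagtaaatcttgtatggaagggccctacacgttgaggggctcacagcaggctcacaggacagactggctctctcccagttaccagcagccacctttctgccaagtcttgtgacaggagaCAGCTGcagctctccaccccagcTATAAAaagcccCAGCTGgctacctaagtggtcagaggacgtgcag
Cox8a, chr19:7217567-7217866: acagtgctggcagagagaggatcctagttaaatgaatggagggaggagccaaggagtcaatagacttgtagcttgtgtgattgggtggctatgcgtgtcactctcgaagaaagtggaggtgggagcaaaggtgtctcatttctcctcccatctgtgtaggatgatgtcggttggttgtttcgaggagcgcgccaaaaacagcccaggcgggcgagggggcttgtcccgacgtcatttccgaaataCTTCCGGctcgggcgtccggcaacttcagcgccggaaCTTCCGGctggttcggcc
Cox6a1, chr5:115348909-115349208: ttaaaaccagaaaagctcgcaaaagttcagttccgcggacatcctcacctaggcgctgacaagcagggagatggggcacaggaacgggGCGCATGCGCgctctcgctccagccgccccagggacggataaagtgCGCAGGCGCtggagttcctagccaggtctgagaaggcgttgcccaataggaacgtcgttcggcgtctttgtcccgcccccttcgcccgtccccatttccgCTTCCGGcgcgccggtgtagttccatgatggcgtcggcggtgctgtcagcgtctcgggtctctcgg
The Cox8b window holds 2 CpG pairs, 2 E-box matches and 1 TATAAA match. The Cox8a window holds 19 CpG pairs and 2 ETS-type matches, and the Cox6a1 window 32 CpG pairs, 1 ETS-type match and 3 NRF1-type matches, 2 of which overlap on opposite strands. Such matches describe the letters and are not shown to be bound. Cox8a is the partner of Cox8b, while Cox6a1 is that of Cox6a2, for which no window was found. The windows of Cox7a1, the muscle form that fell most, and its partner Cox7a2 hold 7 and 20 CpG pairs. Neither has a match to any motif counted here, so the motif contrast printed above does not hold for that pair.

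Windows were found for 68 of 85 member symbols. The NRF1-type motif was in 33.8% of them, against 9.68% of the windows of all 17492 genes in the table, and CCGGAAG in 23.5% against 12.9%. The ERR half-site AAGGTCA was in 11.8% against 4.73%, CAGCTG in 8.82% against 17.4%, TATAAA in 10.3% against 14.8% and a MEF2 motif in 0 members against 3.27% of all genes. The NRF1-type and ETS-type motifs contain CpG, and the median window held 19 CpG pairs in members against 13 in all genes. The part of CpG content in these shares was not tested. By complex, the NRF1-type motif was in 9 of 32 windows of complex I, 2 of 3 of complex II, 3 of 5 of complex III, 1 of 13 of complex IV (Cox6a1) and 8 of 15 of complex V. Atp5a1, Atp5mpl, Cox4i1, Cox4i2, Cox6a2, Cox6c, Cox8c, Cyc1, Ndufa2, Ndufa4l2, Ndufb9, Ndufs1, Sdhc, Uqcrb, Uqcrc2 and Uqcrq were among those not matched.

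Elsewhere in complex IV, Cox5a, a nuclear-encoded structural subunit, was at 83.9, 93.1 and 90.0 CPM in MC903+paeonol ears, 91.3, 92.2 and 94.5 in MC903 ears and 61.5, 75.8 and 65.8 in control ears. Both MC903 groups lay above all controls, by 0.39 ± 0.08 in MC903+paeonol (adjusted p = 0.0028) and 0.45 ± 0.08 in MC903 (adjusted p = 0.000552), and both calls held when scaled by library totals. Cox6b2, a form known from testis, was at 2.51, 3.49 and 2.53 CPM in MC903+paeonol ears, 1.14, 1.96 and 1.38 in MC903 ears and 3.70, 3.66 and 3.13 in control ears. MC903 libraries were lowest, and Cox6b2 fell by 1.23 ± 0.26 in MC903 against control (adjusted p = 0.0021) and was 0.93 ± 0.26 higher in MC903+paeonol than in MC903 (adjusted p = 0.0179). The last call ended without MC903 1, MC903 3 or MC903+paeonol 2 (adjusted p = 0.0632, 0.0612 and 0.077). Cox4i2, a form induced by low oxygen in lung, was at 2.07 to 3.21 CPM in MC903+paeonol, 1.87 to 3.46 in MC903 and 4.22 to 5.45 in control ears. Against control it fell by 0.95 in MC903+paeonol and 0.81 in MC903 (adjusted p = 0.0179 and 0.025), calls that ended without control 2 (0.0596 and 0.0751), in MC903+paeonol also without its libraries 2 or 3 (0.0735 and 0.0594), and in MC903 also without control 1 or MC903 3 (0.0648 and 0.0872).

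Cox6b1, the ubiquitous partner of Cox6b2, was at 108 to 124 CPM in MC903+paeonol, 117 to 128 in MC903 and 92.8 to 102 in control ears and was higher than control by 0.24 in MC903+paeonol and 0.36 in MC903 (adjusted p = 0.0257 and 0.0015). Neither call held when scaled by library totals, and the first ended without control 1, control 2 or MC903+paeonol 2 (adjusted p = 0.0752 to 0.114). Cox4i1, the main form of subunit 4, was at 258.6 to 282.5 CPM in MC903+paeonol, 282.4 to 317.4 in MC903 and 282.9 to 304 in control ears and was called in no comparison. Cox7a2l was not called either, with changes of -0.17 in both MC903 groups against control (adjusted p = 0.0746 in MC903+paeonol and 0.0536 in MC903). Cox7b and Cox7c were called higher in MC903 than in control, and Cox7b lower in MC903+paeonol than in MC903. Neither higher call held when scaled by library totals.

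Within complex I by symbol, Ndufa4 and its relative Ndufa4l2 moved apart in MC903+paeonol against MC903. Ndufa4 (chromosome 6, 11900292 to 11907497, minus strand) was at 247.1, 268.5 and 303.5 CPM in MC903+paeonol ears, 208.7, 197.4 and 195.2 in MC903 ears and 169.5, 183.9 and 166.9 in control ears. The 3 groups did not overlap, with MC903+paeonol highest. It was higher by 0.45 ± 0.08 in MC903+paeonol than in MC903 (adjusted p = 0.00122) and by 0.65 ± 0.08 than in control (adjusted p = 0.000146). In MC903 against control the change was 0.21 ± 0.08 (adjusted p = 0.0437), a call that ended when scaled by library totals (0.02) and without control 1 or 3, any single MC903 library or MC903+paeonol 2 (adjusted p = 0.061 to 0.138). The summed level of 9 suprabasal keratinocyte markers was also highest in MC903+paeonol ears, at 31120 to 34510 CPM, against 7188 to 15500 in MC903 and 8401 to 12430 in control ears; its part in the result was not tested.

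Ndufa4l2 (chromosome 10, 127514967 to 127517154, plus strand), a target of the low-oxygen response that is known to restrain complex I, was at 27.2, 32.9 and 25.9 CPM in MC903+paeonol ears, 55.6, 53.3 and 41.0 in MC903 ears and 24.1, 24.5 and 21.1 in control ears. The MC903 libraries stood above both other groups. It rose by 1.10 ± 0.13 in MC903 against control (adjusted p = 3.06e-05), fell by 0.80 ± 0.13 in MC903+paeonol against MC903 (adjusted p = 0.000693) and changed by 0.30 ± 0.13 in MC903+paeonol against control (adjusted p = 0.097). An exon of Shmt2, a mitochondrial folate enzyme, overlaps it on the other strand, and Shmt2 changed in the same directions, at 74.7, 97.8 and 103 CPM in MC903+paeonol, 171, 189 and 199.5 in MC903 and 46.4, 46.1 and 49.2 in control ears. The protocol marks strand, but the strand setting of the counting is not given, so reads of this pair may not have been told apart.

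AA467197, a further Ndufa4 relative that the symbol rule does not match and that was picked after its values were seen, was at 1.82, 0.65 and 0.69 CPM in MC903+paeonol ears, 2.94, 4.64 and 4.23 in MC903 ears and 1.23, 2.08 and 1.79 in control ears. MC903 libraries were highest, by 1.21 ± 0.39 over control (adjusted p = 0.0245), and it changed by -1.90 ± 0.40 in MC903+paeonol against MC903 (adjusted p = 0.00422). The 9 macrophage and monocyte markers summed to 549.6 to 873.1 CPM in MC903+paeonol, 1699 to 1911 in MC903 and 1012 to 1096 in control ears; their part in this was not tested.

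**Figure D4:**
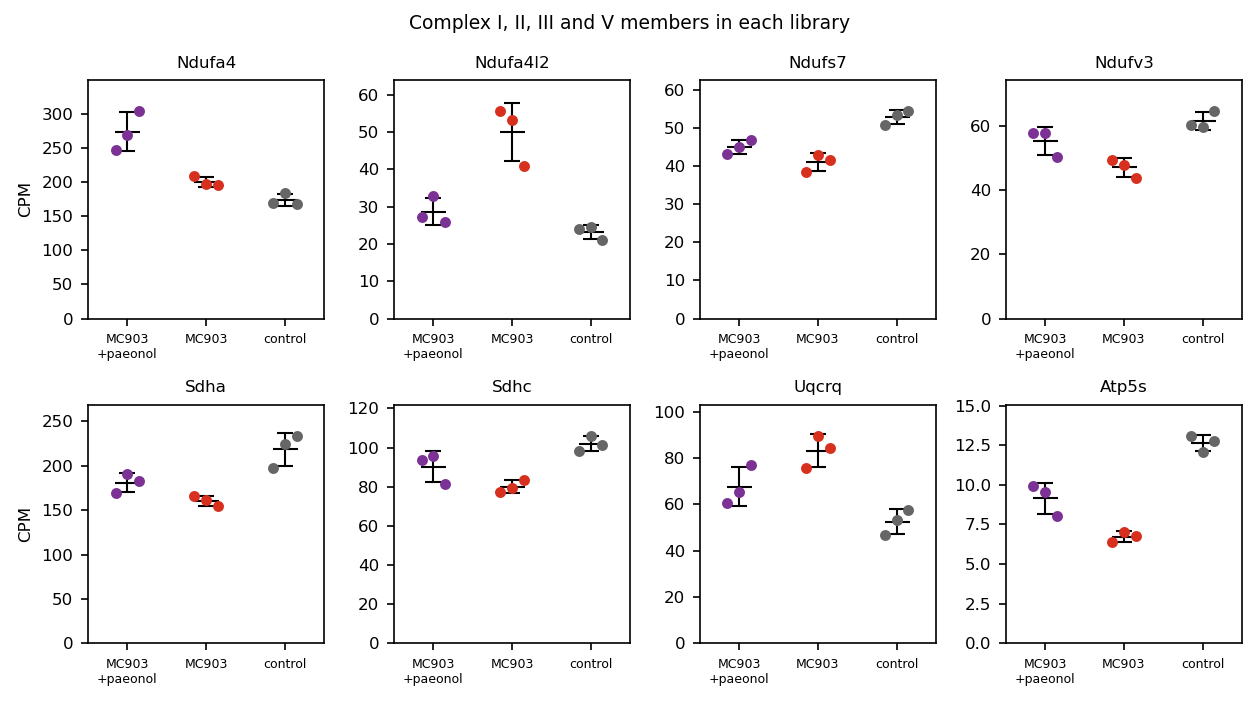
CPM of each library (points) with group mean and SD (black, n = 3) for 8 members of complexes I, II, III and V; each axis starts at 0. Ndufa4 is highest in the MC903+paeonol libraries, Ndufa4l2 in the MC903 libraries, and Ndufs7, Ndufv3, Sdha, Sdhc and Atp5s in the control libraries, while Uqcrq is lowest in the control libraries.

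The subunits that carry the electrons of complex I mostly stayed near control. Ndufv1, which binds NADH and FMN, was at 102 to 115 CPM in MC903+paeonol, 109 to 117 in MC903 and 114 to 120.2 in control ears, with changes from -0.10 to -0.04 and no call. Ndufs1, the largest iron-sulfur subunit, changed by -0.11 to 0.03 and was not called. Ndufs7, an iron-sulfur subunit next to the coenzyme Q site, was at 43.2, 45.0 and 46.7 CPM in MC903+paeonol ears, 38.5, 42.9 and 41.7 in MC903 ears and 50.8, 53.3 and 54.4 in control ears. Control libraries were highest without overlap, and Ndufs7 fell by 0.36 ± 0.07 in MC903 (adjusted p = 0.001) and by 0.23 ± 0.07 in MC903+paeonol (adjusted p = 0.0234). The second call ended without control 2, control 3, MC903+paeonol 1 or MC903+paeonol 2 (adjusted p = 0.0652 to 0.102). With the muscle covariate the changes became -0.002 in MC903+paeonol and -0.06 in MC903, neither called (adjusted p = 0.998 and 0.91).

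Ndufv3, an accessory subunit of the NADH-binding end, was at 57.7, 57.9 and 50.4 CPM in MC903+paeonol ears, 49.5, 47.9 and 43.9 in MC903 ears and 60.3, 59.6 and 64.6 in control ears. It fell by 0.39 ± 0.08 in MC903 against control (adjusted p = 0.00139). Ndufa12, an accessory subunit, was at 18.3, 22.4 and 17.9 CPM in MC903+paeonol ears, 26.1, 25.99 and 22.9 in MC903 ears and 17.1, 15.9 and 17.4 in control ears. MC903 libraries were highest, and it rose by 0.57 ± 0.11 over control (adjusted p = 0.00103). Of its sequence, 22% of 75-base windows also occur in another gene. In MC903+paeonol against MC903, Ndufv3 was higher by 0.23 and Ndufa12 changed by -0.35 on the log2 scale (adjusted p = 0.0387 and 0.0279). The Ndufv3 call ended without control 1, MC903 2 or 3, or MC903+paeonol 1 or 2 (adjusted p = 0.0514 to 0.143), and the Ndufa12 call without MC903 1 or 2 or MC903+paeonol 1 or 3 (adjusted p = 0.0839 to 0.0974). The other complex I members called against control in MC903 were higher (Ndufa3, Ndufa5, Ndufa7, Ndufb6, Ndufc2 and Ndufs5, by 0.25 to 0.39) apart from Ndufb9 (-0.18). None of these higher calls held when scaled by library totals. The Ndufb6 call (0.28, adjusted p = 0.048) also ended without the expression filter (adjusted p = 0.0542). It ended as well without control 1 or 2, MC903 1 or 3, or any single MC903+paeonol library (adjusted p = 0.0501 to 0.186).

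Complex II, which is also the succinate dehydrogenase of the citric acid cycle and is wholly nuclear-encoded, had no member called higher in any comparison. Sdha, the flavoprotein that oxidizes succinate, was at 169, 191 and 182.5 CPM in MC903+paeonol ears, 166, 161 and 155 in MC903 ears and 198, 225 and 234 in control ears. The 3 groups were separate, with MC903 lowest, and Sdha fell by 0.44 ± 0.07 in MC903 against control (adjusted p = 0.000409). In MC903+paeonol it fell by 0.27 ± 0.07 against control (adjusted p = 0.0144), a call that ended without control 2, control 3 or MC903+paeonol 1 (adjusted p = 0.0516, 0.0674 and 0.0671). Sdhc, a membrane anchor, was at 93.9, 95.8 and 81.2 CPM in MC903+paeonol ears, 77.3, 79.3 and 83.5 in MC903 ears and 98.5, 106 and 102 in control ears and fell by 0.35 ± 0.07 in MC903 against control (adjusted p = 0.0018). Sdhb, the iron-sulfur subunit, was at 62.1, 61.5 and 58.2 CPM in MC903+paeonol ears, 65.9, 66.2 and 65.0 in MC903 ears and 67.4, 78.1 and 73.6 in control ears, and fell by 0.27 ± 0.07 in MC903+paeonol against control (adjusted p = 0.00902). Sdhd, the other anchor, changed by -0.04 to 0.04 and was not called. Summed over the complex, levels were 397.5 to 432.8 CPM in MC903+paeonol, 380.3 to 387.8 in MC903 and 433.7 to 494.1 in control ears. With the muscle covariate, Sdha changed by 0.02 in MC903 against control and was not called (adjusted p = 0.974).

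In complex III the catalytic and core subunits Uqcrfs1 (the Rieske iron-sulfur protein), Cyc1 (cytochrome c1) and Uqcrc2 were called in no comparison, with changes of -0.05 to 0.09. Uqcrq, a small subunit next to cytochrome b, was at 60.4, 65.4 and 77.0 CPM in MC903+paeonol ears, 75.7, 89.6 and 84.2 in MC903 ears and 46.8, 53.2 and 57.5 in control ears. Control libraries were lowest, and those of MC903+paeonol and MC903 overlapped. It rose by 0.66 ± 0.10 in MC903 against control (adjusted p = 0.000288), a call that held under every alternative run (adjusted p up to 0.00511). In MC903+paeonol it was 0.36 ± 0.10 higher than control (adjusted p = 0.0202) and changed by -0.30 ± 0.10 against MC903 (adjusted p = 0.0496). The first of these ended when scaled by library totals and without control 1, control 2 or MC903+paeonol 3 (adjusted p = 0.0502 to 0.0821), and the second without control 2 or 3, MC903 2 or 3, or MC903+paeonol 1 or 2 (adjusted p = 0.051 to 0.182), and also when scaled by library totals (0.0591) or DESeq2 size factors (0.0517) and in a fit of the 2 groups (0.0579). Uqcrc1, a core protein, was at 229, 251.5 and 248.9 CPM in MC903+paeonol ears, 216, 212.3 and 206.5 in MC903 ears and 234.5, 221.5 and 242 in control ears. It was higher by 0.20 ± 0.06 in MC903+paeonol than in MC903 (adjusted p = 0.0256), a call that ended without MC903 2 or 3 or MC903+paeonol 2 or 3 (adjusted p = 0.0657 to 0.0966). Uqcrb was higher than control by 0.22 in MC903+paeonol and 0.24 in MC903 (adjusted p = 0.0311 and 0.0131), calls that ended when scaled by library totals. The first also ended without control 1 or 2 or MC903+paeonol 2 or 3 (adjusted p = 0.0624 to 0.115), the second without control 1 or MC903 3 (adjusted p = 0.0572 and 0.0513), and 29.1% of its windows are shared with other genes.

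In complex V, 7 of 17 tested members were called higher and 2 lower in MC903 against control with TMM scaling. That is 41.2% and 11.8%, beside 23% and 23.8% of all genes. The catalytic head of the complex differed little. Atp5b (beta subunit) was at 760.9, 811.1 and 820.5 CPM in MC903+paeonol ears, 780.2, 810.4 and 774.1 in MC903 ears and 693.3, 758.8 and 805.9 in control ears, and Atp5a1 (alpha subunit) changed by -0.12 to 0.05. Neither was called. Atp5c1 (gamma, the rotating shaft) fell by 0.25 in MC903 against control (adjusted p = 0.0124), a call that ended without control 3 or MC903 3 (adjusted p = 0.0608 and 0.0587). Atp5d (delta, on the same shaft) was at 137, 145 and 147 CPM in MC903+paeonol ears, 127, 142 and 137 in MC903 ears and 108, 116 and 107 in control ears. It was higher than control by 0.37 ± 0.06 in MC903+paeonol (adjusted p = 0.00118) and 0.30 ± 0.06 in MC903 (adjusted p = 0.00249), and only the first held when scaled by library totals. Among the genes for the membrane ring subunit c, Atp5g2 was higher than control by 0.31 in MC903+paeonol and 0.37 in MC903 (adjusted p = 0.0078 and 0.00169), both lost when scaled by library totals, while Atp5g1 and Atp5g3 were not called. Atp5f1, Atp5j, Atp5k, Atp5l and Atp5mpl were also called higher in MC903 than in control. None of these calls held when scaled by library totals. The 5 members still called higher in MC903 than in control under that scaling were Cox5a, Cox6a1, Ndufa12, Ndufa4l2 and Uqcrq. Atp5e and Atp5l were called lower in MC903+paeonol than in MC903, calls that also ended under that scaling (adjusted p = 0.0805 and 0.0875). They ended too without the expression filter (0.0636 and 0.0612) and in a fit of the 2 groups (0.0592 and 0.0575). The Atp5e call ended without control 2 or 3, any single MC903 library, or MC903+paeonol 1 or 3 (adjusted p = 0.0564 to 0.159). That of Atp5l ended without control 2, MC903 2 or 3, or any single MC903+paeonol library (adjusted p = 0.0567 to 0.14). Of the Atp5l windows, 63.4% are shared with other genes.

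Atp5s was the complex V gene with the lowest level and the largest change, at 9.91, 9.52 and 8.03 CPM in MC903+paeonol ears, 6.40, 7.04 and 6.77 in MC903 ears and 13.1, 12.1 and 12.8 in control ears. The groups did not overlap. It fell by 0.91 ± 0.13 in MC903 against control (adjusted p = 0.000122), fell by 0.47 ± 0.13 in MC903+paeonol against control (adjusted p = 0.015) and was 0.44 ± 0.13 higher in MC903+paeonol than in MC903 (adjusted p = 0.0211). The second call ended without control 1 or MC903+paeonol 3 (adjusted p = 0.0522 and 0.0628), and the third without MC903 1, MC903 3, MC903+paeonol 1 or MC903+paeonol 2 (adjusted p = 0.0544 to 0.0735). With the muscle covariate the calls of Ndufv3, Sdhc and Atp5s in MC903 against control ended, at -0.41, -0.52 and -1.21 (adjusted p = 0.41, 0.231 and 0.106). The covariate also ended higher calls there, among them Ndufa4l2 (1.01, adjusted p = 0.206) and Cox5a (0.71, adjusted p = 0.127). Those of Cox6a1 (0.48, adjusted p = 0.147) and Ndufa12 (0.67, adjusted p = 0.324) ended too, while those of Uqcrq, Atp5g2 and Atp5k held. Atpif1, the inhibitor of complex V that the symbol rule does not match, was at 110.3 to 116 CPM in MC903+paeonol, 102 to 111 in MC903 and 90.9 to 99.6 in control ears and was higher than control by 0.27 in MC903+paeonol and 0.17 in MC903 (adjusted p = 0.00563 and 0.0329).

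Mitochondrial DNA encodes the remaining subunits of these complexes. Of the 13, all measured, 7 were higher and 0 lower in MC903 than in control ears, 0 were higher and 13 lower in MC903+paeonol than in MC903, and 0 were higher and 8 lower in MC903+paeonol than in control; the medians were 0.34, -0.66 and -0.30. mt-Nd1, a complex I subunit, was at 4515, 4450 and 5370 CPM in MC903+paeonol ears, 8847, 8614 and 8886 in MC903 ears and 4432, 4920 and 5599 in control ears, with changes of 0.82 in MC903 against control and -0.88 in MC903+paeonol against MC903 (adjusted p = 2.83e-05 and 5.38e-05). mt-Co2, a complex IV subunit, changed by 0.54 and -0.65, and mt-Nd2 and mt-Nd4 by -0.44 and -0.36 in MC903+paeonol against control. Nuclear copies of mitochondrial genes may share some of these reads.

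Summed and divided within each library, mitochondrially encoded over nuclear-encoded counts gave 4.80, 4.46 and 5.34 in MC903+paeonol ears, 8.07, 7.27 and 7.85 in MC903 ears and 5.72, 5.86 and 6.46 in control ears. The 3 groups did not overlap, with MC903 highest and MC903+paeonol lowest, and the ratio needs no scaling between libraries. The nuclear-encoded sum was 0.791% to 0.807% of the library in MC903+paeonol, 0.767% to 0.813% in MC903 and 0.817% to 0.908% in control ears, and the mitochondrially encoded sum 3.60% to 4.23% in MC903+paeonol, 5.91% to 6.19% in MC903 and 4.67% to 5.87% in control ears. As shares of the library the groups were apart in the mitochondrial sum, while in TMM-scaled CPM those of MC903+paeonol (37120 to 44750) and control ears (43110 to 54230) overlapped, below MC903 (61760 to 65800). The nuclear sums of MC903+paeonol and MC903 overlapped and lay below control as shares of the library, and in TMM-scaled CPM all 3 groups overlapped (7972 to 8375 in MC903+paeonol, 8146 to 8497 in MC903 and 7538 to 8399 in control ears).

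**Figure D5:**
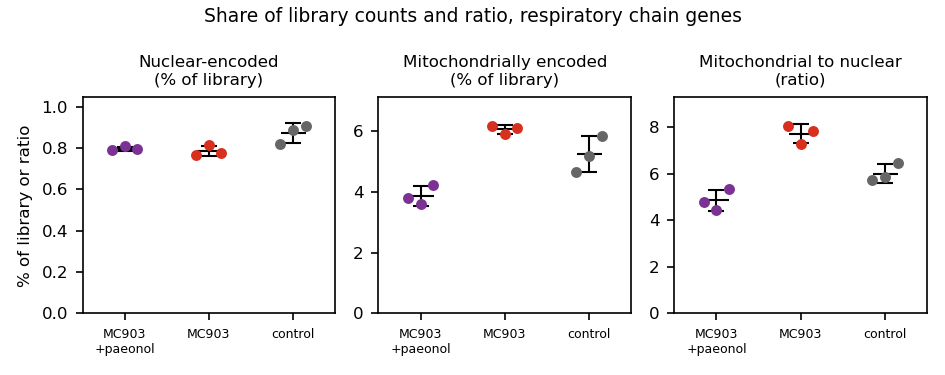
Each library (points) with group mean and SD (black, n = 3): the nuclear-encoded members and the 13 mitochondrially encoded subunits as % of library counts, and their ratio; each axis starts at 0. The ratio is 7.27 to 8.07 in MC903 libraries, above all others, and 4.46 to 5.34 in MC903+paeonol libraries, below all others.

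Genes around the chain were counted from lists of their roles, in the order MC903 against control, MC903+paeonol against MC903, and MC903+paeonol against control, with TMM scaling. Of 18 fatty acid oxidation genes, which feed electrons into the chain, 0 were higher and 15 lower, then 10 higher and 0 lower, then 0 higher and 7 lower. The median changes of this list were -0.58, 0.27 and -0.15. Acadm, the medium-chain acyl-CoA dehydrogenase, changed by -1.30, 0.78 and -0.53. Its changes in MC903 against control and in MC903+paeonol against MC903 were the largest of the list. Of 17 citric acid cycle genes, 1 was higher and 10 lower, then 3 and 2, then 0 and 7. Of 18 outer membrane and import genes, 13 were higher and 1 lower, then 1 and 9, then 9 and 0. Of 17 complex I assembly factors 3 were higher and 2 lower, then 1 and 1, then 3 and 0, and of 32 tested for complexes II to V 7 and 5, then 1 and 5, then 0 and 3. Markers of sebaceous gland, fibroblasts and cartilage were lowest in MC903 too. The 8 sebaceous gland markers, which include lipid synthesis genes, summed to 3237 to 4471 CPM in MC903+paeonol, 757.1 to 1540 in MC903 and 5835 to 7703 in control ears, with 5 lower and 0 higher in MC903 than in control. The 7 fibroblast markers summed to 4149 to 5257 CPM in MC903+paeonol, 2810 to 3927 in MC903 and 8566 to 9341 in control ears, with 5 lower and 1 higher in MC903 than in control. The 8 cartilage markers, of which Matn1 was at 0 in every library and Matn3 in the MC903 libraries, summed to 218.3 to 297 CPM in MC903+paeonol, 159.3 to 182.4 in MC903 and 352.4 to 433.6 in control ears. Sdha and Atp5s had the same order of groups, and the part of these tissues in those changes and in the fatty acid oxidation genes was not tested. Other lists had other orders. The 5 endothelial markers summed to 117.7 to 166.4 CPM in MC903+paeonol, 233.8 to 260.8 in MC903 and 217.5 to 257.5 in control ears. The 8 proliferation markers summed to 808.3 to 987.9 CPM in MC903+paeonol, 815.7 to 836.7 in MC903 and 456.1 to 472.2 in control ears. All 8 were called higher than control in both MC903 groups.

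Cytochrome c (Cycs), the carrier between complexes III and IV, was at 80.2, 90.5 and 101 CPM in MC903+paeonol ears, 116.5, 127 and 133 in MC903 ears and 63.6, 86.3 and 84.1 in control ears. MC903 libraries were highest, with changes of 0.69 over control and -0.47 in MC903+paeonol against MC903 (adjusted p = 0.000767 and 0.0129). Of 17 regulators of mitochondrial biogenesis, 4 were higher and 4 lower in MC903 than in control ears. Ppargc1a, a coactivator of respiratory genes, fell by 1.40 there, and the related Pprc1 rose by 1.09. Among carriers, Slc25a4, the muscle form of the ADP/ATP exchanger, fell by 0.87 and Slc25a5, its widely made form, rose by 0.71.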

How the data were processed

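RNA was sequenced from 9 whole-ear libraries. Per the labels' protocols, RNA was taken up with Trizol, selected with oligo(dT) and made into libraries with a dUTP-marked second strand. The submitters' processing notes name HISAT2 2.0.4, StringTie 1.3.4d, cutadapt and the build GRCm38, without the role of each; annotation and strand setting are not given. The deposited values are whole numbers per gene and were taken as estimated counts; how they were made from the authors' StringTie output is not given, and low values pile up at multiples of 4, so dividing by 4 was an alternative.

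Of the identifiers, 55141 were matched to GENCODE M21 (GRCm38). edgeR 4.0.16 with limma 3.58.1 (R 4.3.3, data.table version 1.17.8) fitted all 9 libraries with TMM factors (0.942 to 1.09), filterByExpr (minimum count 10, total 15) and a robust quasi-likelihood test; p-values were adjusted by Benjamini-Hochberg over all 21925 genes tested, and SEs are those the F statistic implies. DESeq2 1.42.0 was an alternative. Ratios used exact permutation tests (scipy 1.17.1, with pandas 2.3.3, numpy 2.4.6, Python 3.11.15); figures used matplotlib 3.10.9. Libraries of a group differed by more than counting noise (chi-square per degree of freedom 7.04 to 15.8 by pair); the median SE of a member was 0.07 (log2) and the smallest change called 0.18. The scripts were tested on simulated data.

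The members and lists were chosen with earlier results of these data known. Named members were the core subunits, the members with tissue, stress or inhibitor forms, the 2 largest called changes per complex and direction whose groups did not overlap, and the 2 muscle and 2 mitochondrially encoded genes of smallest p; 1 named member is counted but not reported here. By length, 15 members share over 10% of their 75-base windows with other genes, 6 overlap an exon of another gene on the same strand and 26 on the other.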

Additional observations from a re-analysis of the deposited data

How the results depend on the processing

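Counts of members called higher and lower were within 1.5 times the main counts under DESeq2, edgeR with DESeq2 size factors, no expression filter, a mean CPM of at least 1 and counts divided by 4, and for MC903 against control and MC903+paeonol against control also in fits of the 2 groups compared, except where given here. Scaled by library totals, they were 5 and 35 in MC903 against control, 7 and 4 in MC903+paeonol against MC903, and 4 and 24 in MC903+paeonol against control, and Cox7a2 changed by -0.18 in MC903 against control. With the muscle covariate they were 7 and 0, 2 and 10, and 1 and 0. Over all genes that fit called 852 and 672, 2562 and 2299, and 298 and 56. A minimum change of 1.2-fold left 4 and 6, 2 and 1, and 1 and 4. Over all genes it left 3490 and 3847, 1907 and 1636, and 1814 and 1613. A fit of the 2 groups gave 4 and 4 in MC903+paeonol against MC903, beside 3040 and 2950 of 20811 genes. With the muscle covariate, Atp5c1, Cox6a2, Cox8b and Sdha changed by 0.15, 0.23, 0.76 and 0.0192 in MC903 against control, and Cox8b and Sdha by 0.25 and 0.0768 in MC903+paeonol against control. Leaving out single libraries gave, over all genes, 4442 to 5141 higher and 4550 to 5280 lower in MC903 against control. In MC903+paeonol it gave 2661 to 3242 and 2404 to 3088 against MC903, and 2879 to 3590 and 2313 to 3171 against control. Among members it gave 15 to 24 higher and 9 to 14 lower in MC903 against control. It gave 1 to 6 and 1 to 8 in MC903+paeonol against MC903, and 5 to 12 and 5 to 9 in MC903+paeonol against control. It moved the log2 difference of the Cox6a2 to Cox6a1 ratio in MC903+paeonol against MC903 between -0.097 and 0.15, and that of Cox8b to Cox8a between -0.113 and 0.219, and that of Cox7a1 to Cox7a2 between 0.323 (without MC903 3) and 0.73 (without MC903 2); fewer samples enter these values.

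Same-numbered libraries did not deviate together (correlations -0.01 to 0.04), so no pairing by number was seen. The labels do not say what the numbers mean, and these correlations cannot exclude a weak shared effect. With a replicate block, 26 members were higher and 13 lower in MC903 against control, 6 and 7 in MC903+paeonol against MC903, and 12 and 9 in MC903+paeonol against control. It ended the calls of Ndufa4 in MC903 against control and of Cox7a2 in MC903+paeonol against control (adjusted p = 0.0605 and 0.065) and no other call of a named member. At this depth 3 members had too few counts to be tested; no other limit of depth was tested.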
